A study of Saccharomyces cerevisiae with 16 samples.

Results

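Saccharomyces cerevisiae cells that have lost a working mitochondrial genome form small colonies and are called petite, and the isogenic cells that respire are called grande. The comparison described here was of untreated petite yeast in YM, a minimal medium, against untreated petite yeast in YPD, a rich medium made with yeast extract and peptone, and asked which transcripts differ with the medium in cells without respiration. It rested on 4 of the 16 libraries of the series, 2 cultures for each medium, and on all 6717 genes of the count table, of which 5856 had enough counts to be tested. The other libraries were from grande yeast in both media and from cultures of both strains given MCHM, an industrial chemical. Untreated grande yeast in YM and in YPD, 2 cultures each, served here only to ask whether the difference between media was larger or smaller in petite yeast.

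All libraries were from S96 (MATa lys5), a haploid strain of the S288c background, or from the petite strain that had been made from it by incubation with ethidium bromide, and the YM of these strains was supplemented with lysine. The labels describe cultures that were grown to mid-log phase, diluted to early-log phase and split, with the untreated and the MCHM subculture of each culture then grown for a further 2.5 h. The 4 untreated petite libraries were from cultures 6 and 14 in YM and from cultures 2 and 10 in YPD, and values of a gene are given in that order. No label says how the cultures of a medium relate to each other beyond being replicates. The p-values rest on a spread within groups estimated over all 16 libraries, grande and MCHM-treated ones included. They do not measure the spread between the 4 petite cultures alone. Cell density and growth rate at harvest were not used here, and any difference in growth between the media cannot be told apart from other differences between them.

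The 4 libraries held 3631001 and 4012646 counts in YM, against 2239640 and 4082636 counts in YPD. None of the 28 mitochondrially encoded genes in the table had a count in any of them, which allows a share of up to 7.48e-05% and 8.26e-05% of the counts in the YM libraries and up to 7.35e-05% and 0.000134% in the YPD libraries (3 counts of the total, counting error only). COX2, whose loss was used to check the petite strain, was among these genes. None of 8 such genes, COX2 included, had enough counts across the 16 libraries, grande ones among them, to be tested. Counts of 0 here therefore do not tell petite from grande yeast. Of the genes that mark an a cell, 7 of 7 were measured in every library. Of the alpha genes, the pheromone gene MF(ALPHA)1 had at most 5 counts per library, MF(ALPHA)2 and STE3, the a factor receptor, had at most 19 and 23, and SAG1, the alpha agglutinin, had 279 and 313 counts in YM, against 105 and 209 in YPD. The 8 meiosis and sporulation genes summed to 28.8 and 68.9 CPM in YM, against 46.8 and 44.7 CPM in YPD.

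Yeast uses rich nitrogen sources first. Genes for poorer ones are kept off by nitrogen catabolite repression and are switched on by the GATA factors Gln3 and Gat1, with Dal80 as a repressor of the same family. Shortage of amino acids is answered through the activator Gcn4, and shortage of sulfur amino acids through Met4 with the DNA-binding protein Cbf1. Growth in rich medium is known for high expression of ribosomal proteins, and slow or stressed growth for expression of stress genes through the activators Msn2 and Msn4.

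In untreated petite yeast, 891 of 5856 genes differed between the media, of which 527 were higher and 364 lower in YM. That is 15.2% of the genes tested, 9% higher and 6.22% lower, and these shares are the background for every count of a gene list below. A gene was counted as different when the quasi-likelihood test of edgeR, adjusted by Benjamini-Hochberg across the genes tested, gave p under 0.05 and the means were 2-fold or more apart. The median log2 fold change was 1.98 among the genes higher in YM and -1.31 among those lower. Of the genes higher in YM, 260 rose by 4-fold or more and 128 by 8-fold or more, and of those lower in YM, 57 fell by 4-fold or more and 21 by 8-fold or more. Genes higher in YM took up 21.9% and 26.1% of all counts in YM, against 4.46% and 3.83% in YPD, and genes lower in YM took up 9.72% and 9.22% in YM, against 24.7% and 25.8% in YPD. The median over all tested genes was -0.02. As a library pools a whole culture, fewer cells expressing a gene and less of its RNA per cell cannot be told apart.

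Every one of the 891 genes had YM and YPD values that did not overlap, but so had 3426 of all tested genes, since 2 against 2 libraries separate easily. Each of the 891 thus kept its direction when culture 6 was set against culture 2 and culture 14 against culture 10. With 2 libraries a group an exact permutation test of a single gene cannot give a two-sided p below 0.333. The count moved with each library: 510 genes passed without YM culture 14, 718 without YM culture 6, 514 without YPD culture 10 and 746 without YPD culture 2. Of the 891 genes, 320 passed whichever of the 4 libraries was left out, 218 of them higher and 102 lower. These are called retained below, and for a named gene that was not retained the library that ended its call is given. The fit held all 16 libraries, in which treated and untreated subcultures share a culture. With the 8 untreated libraries alone 595 genes passed, and every retained gene named below was among them. With the 4 compared libraries alone 381 passed, and 12 retained genes named below then lost their call: BNA4, DAN1, GIT1, GLN3, HIS3, LYS1, LYS9, LYS20, LYS21, PDR5, SCW10 and STE6 (adjusted p from 0.0501 to 0.0716).

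**Figure D1:**
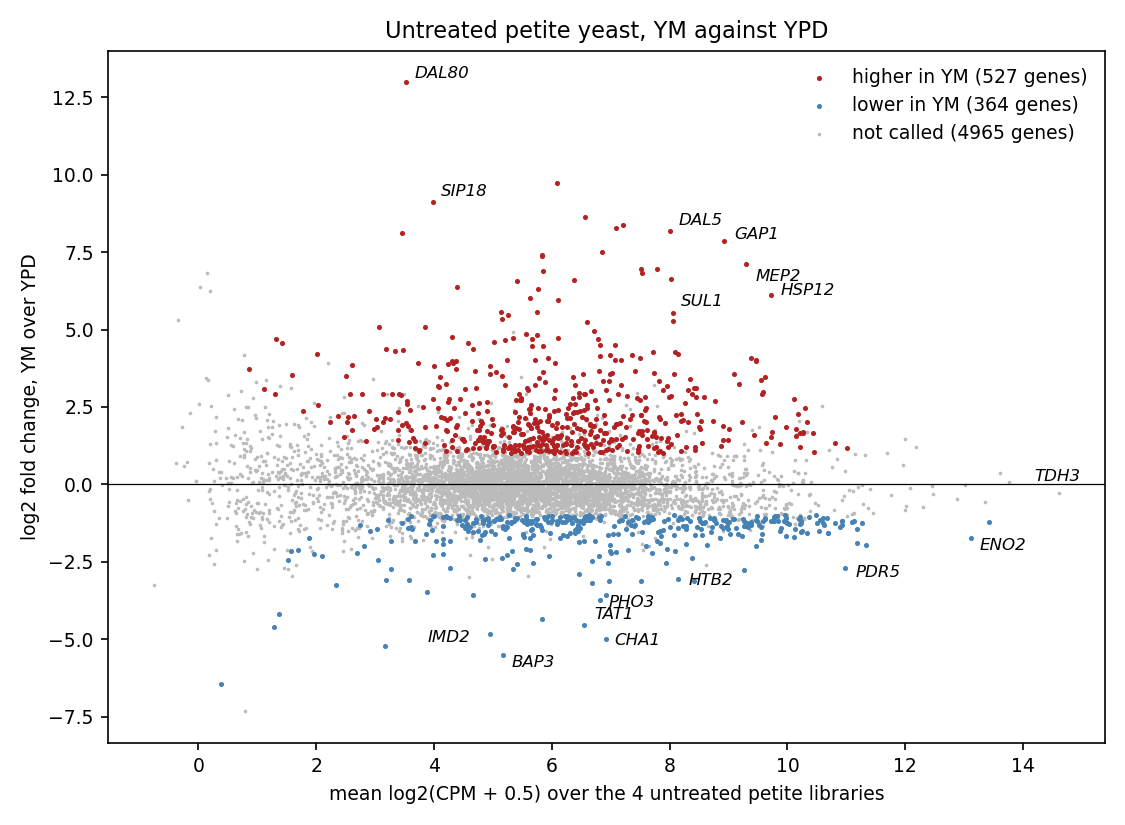
Log2 fold change of YM over YPD in untreated petite yeast (y axis) against the mean log2(CPM + 0.5) over the 4 libraries (x axis), 1 point per tested gene. The 527 genes higher in YM (red) reach further from 0 than the 364 lower ones (blue), and TDH3, the gene with the most counts, lies near 0; the value of DAL80, with 0 counts in YPD, depends on the prior count.

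Genes for the use of allantoin and urea, which yeast turns to as poor nitrogen sources, had the highest median of the gene lists. Of 11 tested genes of allantoin and urea use, 10 were higher in YM and none lower, with a median log2 fold change of 4.95, and 9 of these calls were retained. Their summed level was 8599.8 and 13259 CPM in YM, against 179 and 191 CPM in YPD. DAL80, the GATA-type repressor of this set, had 192 and 363 CPM in YM and not a count in either YPD library. Against the floor of 3 counts per library it was at least 285-fold higher in YM (adjusted p = 0.000238). DAL5, a transporter of allantoate and of some dipeptides, had 4190.1 and 4423 CPM in YM, against 16 and 13.8 CPM in YPD (log2 fold change 8.18, SE 0.67, adjusted p = 4.07e-05). DAL4, the allantoin permease, had 1335 and 2428 CPM in YM, against 3.7 and 5.46 CPM in YPD (log2 fold change 8.64, SE 0.74, adjusted p = 4.72e-05). The YM cultures of both transporters were far above the YPD cultures, and the cultures of a medium lay within 2-fold of each other. DUR3, the urea transporter, had 1379 and 2740.5 CPM in YM, against 17.3 and 16.2 CPM in YPD (log2 fold change 6.95, SE 0.59, adjusted p = 4.72e-05), while DAL7 and DAL3, which act in the breakdown of allantoin, had log2 fold changes of 4.95 and 5.33.

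The 500 bases before each gene start were searched for the core of the GATA-factor site, GATAAG on either strand. It was found before 11 of 11 allantoin and urea genes, in 8 of them at least 2 times, and before 22.7% of the 5667 tested genes whose upstream window could be read. Among genes higher in YM the share was 39.3%, and among genes lower in YM 14.1%. The windows can reach into a neighbouring gene, and a match is not a bound site. The sites nearest to the start of 4 of the most raised genes of nitrogen use show the same core in different surroundings, with the match in capitals, read 5′ to 3′ on the strand of the gene.
DAL80: cgatcctgggCTTATCtcgctgcatt
DAL5: acggctaataCTTATCattatctggt
GAP1: aattaaacatGATAAGcgcatagttg
MEP2: gaccctgtgcCTTATCaatgaagtat
In build R64 these lie, for DAL80 (YKR034W) at chrXI:506661-506686 on the plus strand, for DAL5 (YJR152W) at chrX:719485-719510 on the plus strand, for GAP1 (YKR039W) at chrXI:514811-514836 on the plus strand and for MEP2 (YNL142W) at chrXIV:357210-357235 on the plus strand. All 4 are upstream of the annotated gene, between 165 and 236 bases before its start. CTTATC is the same core on the opposite strand. DAL80 and DAL5 have 3 matches each, GAP1 has 4 and MEP2 has 7 in their windows.

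Proline use followed. PUT1, the proline oxidase that starts the breakdown of proline in mitochondria, had 2743 and 2536 CPM in YM, against 9.86 and 6.18 CPM in YPD (log2 fold change 8.38, SE 0.50, adjusted p = 6.15e-06). PUT4, the proline permease, had 2187 and 2636 CPM in YM, against 11.1 and 4.75 CPM in YPD (log2 fold change 8.29, SE 0.74, adjusted p = 6.33e-05). The YM cultures agreed closely for both genes, and no YPD value came near them. PUT2, which finishes the conversion to glutamate, had a log2 fold change of 3.55 (adjusted p = 8.54e-05). PUT3, their activator, had one of 1.02, but its call was lost without YM culture 14 (adjusted p = 0.199), YPD culture 2 (0.148) or YPD culture 10 (0.0962). PRO1, which starts the synthesis of proline, went the other way, with 46.8 and 49.9 CPM in YM, against 78.9 and 146 CPM in YPD, a fall that was lost without YM culture 6 (adjusted p = 0.091), YM culture 14 (0.0885) or YPD culture 10 (0.206). In all, 4 of 7 tested proline genes were higher and 1 lower.

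Ammonium uptake and glutamate synthesis were higher in YM as well, with 7 of 8 genes up, none down and a median of 2.57. MEP2, the high-affinity ammonium transporter, had 5981 and 9526 CPM in YM, against 34.1 and 77.4 CPM in YPD (log2 fold change 7.11, SE 0.81, adjusted p = 0.000261). MEP1, a second ammonium transporter, had 469 and 753 CPM in YM, against 50.5 and 45.1 CPM in YPD (log2 fold change 3.68, SE 0.30, adjusted p = 3.81e-05). GDH1, the NADPH-dependent glutamate dehydrogenase that fixes ammonium, had 2200.4 and 3535 CPM in YM, against 164 and 197 CPM in YPD (log2 fold change 3.99, SE 0.38, adjusted p = 8.54e-05). The groups were far apart in all of these genes, and YM culture 14 was above YM culture 6 in each. GLT1, glutamate synthase, and GDH3, a second biosynthetic glutamate dehydrogenase, rose with log2 fold changes of 2.98 and 2.15. GDH2, which releases ammonium from glutamate, rose by 1.78 on the log2 scale, and this call was lost without YM culture 14 (adjusted p = 0.126) or YPD culture 10 (0.122).

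Among 8 genes for GATA factors and the use of GABA, 7 were higher in YM and none lower (4 without YPD culture 10). GAT1, a GATA activator, had 303 and 906 CPM in YM, against 18.5 and 27.3 CPM in YPD (log2 fold change 4.71, SE 0.67, adjusted p = 0.00092). GLN3, the other activator, rose less, with 82.3 and 187 CPM in YM, against 29.6 and 30.4 CPM in YPD (log2 fold change 2.16, SE 0.37, adjusted p = 0.00244). The level of GAT1 in YM culture 14 was the highest by a wide margin, but YM culture 6 also stood well above both YPD cultures. UGA4, the GABA permease, had 541 and 1095 CPM in YM, against 9.86 and 7.13 CPM in YPD (log2 fold change 6.60, SE 0.67, adjusted p = 0.000153). UGA3, the activator of the GABA genes, had a log2 fold change of 3.35, and UGA1 and UGA2, the enzymes of GABA breakdown, had 2.22 and 2.45. Both enzyme calls were lost without YM culture 6 (adjusted p = 0.0535 for UGA1 and 0.0516 for UGA2) and without YPD culture 10 (0.103 and 0.0831).

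**Figure D2:**
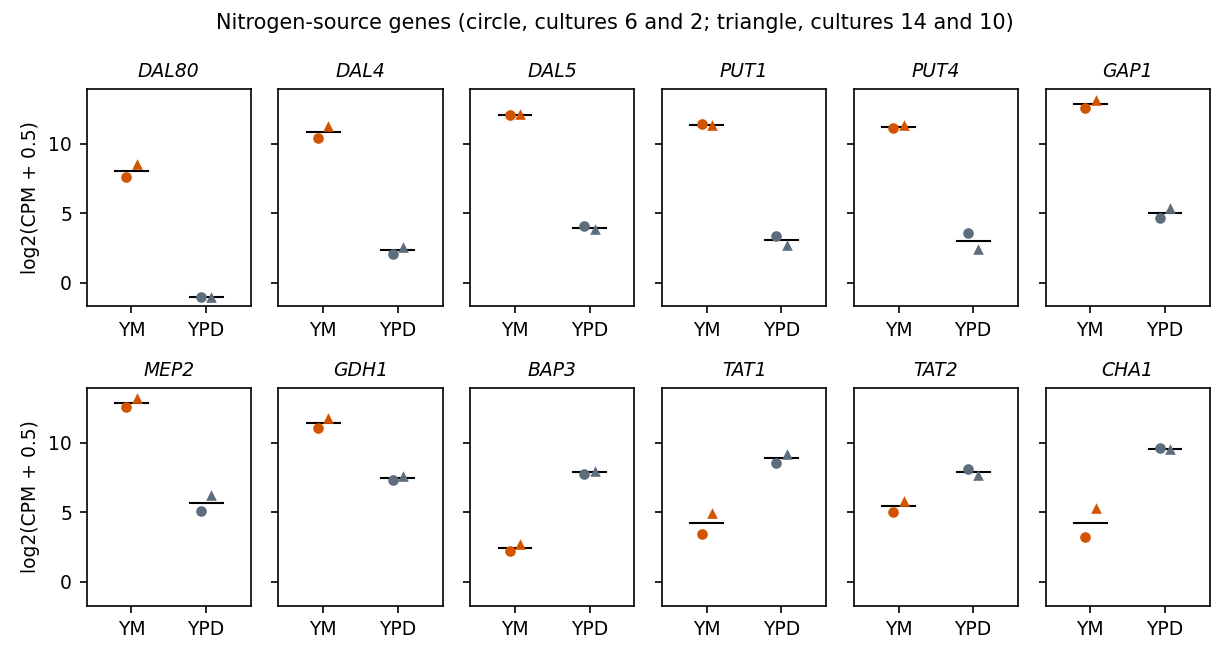
Log2(CPM + 0.5) of 12 genes of nitrogen use in the untreated petite libraries, YM left and YPD right, with circles for cultures 6 and 2, triangles for cultures 14 and 10 and a bar at the mean of the 2 cultures. DAL80 to GDH1 are higher in both YM cultures, with DAL80 at 0 counts in YPD, and BAP3, TAT1, TAT2 and CHA1 are lower.

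Amino acid permeases split in both directions: of 16 tested, 4 were higher and 4 lower in YM. GAP1, the general amino acid permease that is under nitrogen catabolite repression, had 6140.1 and 8861 CPM in YM, against 24.2 and 39.9 CPM in YPD (log2 fold change 7.86, SE 0.90, adjusted p = 0.000262). CAN1, the arginine permease, had 1915 and 3006 CPM in YM, against 186 and 292 CPM in YPD (log2 fold change 3.36, SE 0.48, adjusted p = 0.00092). DIP5, which carries glutamate and aspartate, had 2274 and 1471 CPM in YM, against 271 and 124 CPM in YPD (log2 fold change 3.25, SE 0.62, adjusted p = 0.00453). In these 3 both YM cultures were far above YPD. The permeases that fell carry branched-chain or aromatic amino acids, or many. BAP3, a permease of branched-chain amino acids, had 4.11 and 6.18 CPM in YM, against 219 and 251 CPM in YPD (log2 fold change -5.50, SE 1.07, adjusted p = 0.00492). TAT1, a tyrosine and branched-chain permease, had 10.5 and 30.7 CPM in YM, against 370.1 and 600.5 CPM in YPD (log2 fold change -4.55, SE 0.50, adjusted p = 0.000238). The annotated region of TAT1 overlaps another gene, and unstranded counts cannot tell the reads of the overlap apart. TAT2, the tryptophan permease, had 32.7 and 55.6 CPM in YM, against 283 and 208 CPM in YPD (log2 fold change -2.47, SE 0.34, adjusted p = 0.000769). All 3 were below every YPD value in both YM cultures. AGP1, a broad permease named here after its values were seen, was also lower, with 81.2 and 107 CPM in YM, against 311 and 203 CPM in YPD, although its call was lost without YM culture 6 (adjusted p = 0.188), YM culture 14 (0.115), YPD culture 2 (0.177) or YPD culture 10 (0.0646). PTR2, the carrier of small peptides, had 653 and 638 CPM in YM, against 197 and 122 CPM in YPD, and its call was likewise lost in each of these cases (adjusted p = 0.0772, 0.087, 0.0581 and 0.18 in the same order). CHA1, the serine and threonine deaminase that lets cells use these amino acids as nitrogen source, fell in the same way, with 8.74 and 39.2 CPM in YM, against 786 and 747 CPM in YPD (log2 fold change -4.99, SE 0.73, adjusted p = 0.00103).

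Genes that make arginine were higher in YM without exception, 10 of 10, with a median log2 fold change of 2.91 and 6 retained. Without YM culture 14, 6 were called and the median was 1.74. ARG3, ornithine carbamoyltransferase, had 139 and 689.8 CPM in YM, against 11.1 and 19.5 CPM in YPD (log2 fold change 4.74, SE 0.85, adjusted p = 0.00303). ARG1, argininosuccinate synthetase, had 1362 and 4625 CPM in YM, against 206 and 151 CPM in YPD (log2 fold change 4.07, SE 0.58, adjusted p = 0.000966). ARG4, which makes arginine in the last step, had 1567 and 3907 CPM in YM, against 289 and 211 CPM in YPD (log2 fold change 3.45, SE 0.47, adjusted p = 0.000769). YM culture 14 was more than 2-fold above YM culture 6 in each of these genes, yet culture 6 remained well above YPD. ARG56, for a precursor of early enzymes of the pathway, and ARG7, which makes ornithine, had log2 fold changes of 4.26 and 2.91. The enzymes that break arginine down, CAR1 and CAR2, were higher too, with log2 fold changes from 1.91 to 2.84. Neither call was retained, and both were lost without YM culture 14 or YPD culture 10. CAR1, arginase, had 266 and 839.99 CPM in YM, against 86.7 and 68.4 CPM in YPD.

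Lysine synthesis was higher in YM in 8 of 10 tested genes, with a median of 2.15, in medium to which lysine had been added. Without YM culture 14 this was 5 genes, with a median of 1.18. LYS1, which makes lysine in the last step, had 276 and 1460.2 CPM in YM, against 50.9 and 50.6 CPM in YPD (log2 fold change 4.10, SE 0.69, adjusted p = 0.00221). LYS9, which acts just before it, had 283 and 1372 CPM in YM, against 71.5 and 93.6 CPM in YPD (log2 fold change 3.32, SE 0.62, adjusted p = 0.00403). Culture 14 was far above culture 6 here too, and both were above YPD. The homocitrate synthases LYS20 and LYS21, which start the pathway, had log2 fold changes of 2.82 and 2.27. LYS2, aminoadipate reductase, which Lys5 activates, had one of 2.06, a call lost without YM culture 14 (adjusted p = 0.074). LYS5 itself, mutated in S96, had 32.1 and 56.8 CPM in YM, against 16 and 16.6 CPM in YPD, and its call was also lost without YM culture 14 (adjusted p = 0.0692).

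Of the genes for branched-chain amino acids, 8 of 13 were higher and none lower, with a median of 1.53 (5 without YM culture 14 and 5 without YPD culture 2 were higher). LEU2, isopropylmalate dehydrogenase, had 825 and 587 CPM in YM, against 83 and 114 CPM in YPD (log2 fold change 2.84, SE 0.44, adjusted p = 0.0015). LEU1, which acts before it, had 813 and 713 CPM in YM, against 106 and 143 CPM in YPD (log2 fold change 2.61, SE 0.48, adjusted p = 0.00364). In these, unlike the arginine and lysine genes, YM culture 6 was the higher of the YM cultures. LEU4, which commits the pathway to leucine, had 1876 and 4386 CPM in YM, against 669 and 465 CPM in YPD (log2 fold change 2.47, SE 0.42, adjusted p = 0.00223). BAT1, the mitochondrial branched-chain transaminase, and OAC1, a mitochondrial carrier used in leucine synthesis, had log2 fold changes of 2.01 and 1.95. Histidine, aromatic and other amino acid pathways had lower shares called and no member that fell. In histidine synthesis 3 of 7 genes were higher, with HIS3 at 250.4 and 490.2 CPM in YM, against 117 and 99.8 CPM in YPD (log2 fold change 1.77, SE 0.32, adjusted p = 0.00333), in aromatic synthesis 5 of 14 and in serine, glycine, threonine and aspartate synthesis 4 of 14. These numbers moved with the libraries. Of the histidine genes 5 without YM culture 6, 1 without YM culture 14 and 1 without YPD culture 10 were called. Of the aromatic genes the number was 8 without YM culture 6, 0 without YM culture 14, 2 without YPD culture 2 and 0 without YPD culture 10. In the serine, glycine, threonine and aspartate list it was 6 without YM culture 6, 1 without YM culture 14, 1 without YPD culture 2 and 2 without YPD culture 10, and the median of 0.73 was -0.05 without YM culture 14. SER3, which starts serine synthesis, was the exception in size, with 534 and 984 CPM in YM, against 57.9 and 67.9 CPM in YPD (log2 fold change 3.59, SE 0.32, adjusted p = 6.33e-05), and its annotated region overlaps another gene.

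None of the 4 tested genes for GCN4 and its regulators met both criteria in the fit of all libraries, and 1 fell without YM culture 14 or without YPD culture 2. GCN4 itself, which is known to be controlled mainly in translation, had 1899.5 and 2311 CPM in YM, against 1327 and 1540.4 CPM in YPD (log2 fold change 0.55, SE 0.25, adjusted p = 0.136). GCN20, which helps to sense uncharged tRNA, had a log2 fold change of -0.92 (adjusted p = 0.0178), short of 2-fold. The Gcn4 site, TGACTCA on either strand, was present in the windows of 9 of 10 arginine genes and 8 of 13 branched-chain genes. Lysine, histidine and aromatic synthesis had it in 4 of 10, 4 of 7 and 4 of 14 windows. The list of serine, glycine, threonine and aspartate synthesis had it in 6 of 14. The share was 4.18% of all 5667 windows, 15% of those of genes higher in YM and 1.93% of those of genes lower in YM. The site is shown for 3 of the retained genes named above, in capitals.
ARG1: gattttttagTGACTCAtgtcgcattt
ARG4: agtagatgaaTGACTCActttttggat
LEU4: tacgtgtaagTGACTCAgttctttcaa
These sites are, in R64, for ARG1 (YOL058W) at chrXV:218856-218882 on the plus strand, for ARG4 (YHR018C) at chrVIII:141565-141591 on the minus strand and for LEU4 (YNL104C) at chrXIV:426839-426865 on the minus strand, which is 338, 172 and 94 bases before the start of each gene.

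Sulfate uptake and reduction were raised as a whole pathway: 8 of 9 tested genes were higher in YM, 7 of them retained, with a median log2 fold change of 2.83. The summed level of the pathway was 3514 and 4827 CPM in YM, against 333 and 400.5 CPM in YPD. SUL1, a high-affinity sulfate permease, had 1752 and 1972 CPM in YM, against 53.8 and 26.4 CPM in YPD (log2 fold change 5.55, SE 0.63, adjusted p = 0.000261). SUL2, the second one, had 197 and 317 CPM in YM, against 30.4 and 25.7 CPM in YPD (log2 fold change 3.20, SE 0.47, adjusted p = 0.00116). Further down, MET16, which reduces activated sulfate, had 92.6 and 146 CPM in YM, against 16.4 and 15 CPM in YPD (log2 fold change 2.93, SE 0.43, adjusted p = 0.00107). The 2 YM cultures lay close together in SUL1 and within 2-fold of each other in SUL2 and MET16, far from YPD. MET5 and MET10, the subunits of sulfite reductase, and MET1, which makes its siroheme cofactor, had log2 fold changes of 3.16, 2.83 and 2.80.

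Past sulfide, 8 of 17 genes of methionine, cysteine and S-adenosylmethionine were higher and none lower (5 higher and 1 lower without YPD culture 2). STR3, which turns cystathionine into homocysteine, had 155 and 699 CPM in YM, against 5.75 and 11.6 CPM in YPD (log2 fold change 5.58, SE 0.76, adjusted p = 0.000769). MET13, which supplies methyl groups, had 191 and 399.7 CPM in YM, against 37 and 36.6 CPM in YPD (log2 fold change 3.01, SE 0.42, adjusted p = 0.000877). MET6, methionine synthase, had 1989 and 3975 CPM in YM, against 359 and 524 CPM in YPD (log2 fold change 2.75, SE 0.47, adjusted p = 0.00226). Each of these genes was higher in YM culture 14 than in YM culture 6. STR2, which makes cystathionine from cysteine, had a log2 fold change of 2.14. The call of MET17 was not retained, and MET17 overlaps another annotated gene. MET17, which builds homocysteine from sulfide, had 2058 and 3393 CPM in YM, against 434 and 926 CPM in YPD, lost without YM culture 14 (adjusted p = 0.0614) or YPD culture 2 (0.057). MET2, which activates homoserine for it, had 149 and 122 CPM in YM, against 22.2 and 35.2 CPM in YPD, lost without YPD culture 2 (adjusted p = 0.0541). Among genes for the uptake and use of other sulfur sources 3 of 8 were higher and 1 lower, and none was retained. The number higher was smaller whichever compared petite library was left out. MUP1, the high-affinity methionine permease, was the lower one, with 44 and 104 CPM in YM, against 119 and 461 CPM in YPD, lost without YM culture 6 (adjusted p = 0.223), YM culture 14 (0.0614) or YPD culture 10 (0.512).

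The Cbf1 site was searched as CACGTGA on either strand, so that the palindrome TCACGTGA counts as 2 matches. It was in the windows of 8 of 9 sulfate genes and 11 of 17 methionine and cysteine genes, against 4.61% of all windows, 8.64% of those of genes higher in YM and 2.49% of those of genes lower in YM. It is shown before 3 genes of the sulfate pathway.
MET16: tatcatcattTCACGTGgctagtaaaa
MET10: cttatagaagCACGTGAccacaattca
SUL2: cgtgtcaggtCACGTGAagagagaaat
These are, in R64, for MET16 (YPR167C) at chrXVI:877795-877821 on the minus strand, for MET10 (YFR030W) at chrVI:213071-213097 on the plus strand and for SUL2 (YLR092W) at chrXII:323226-323252 on the plus strand, which is 172, 224 and 301 bases before the gene start. SUL1, the most raised gene of the pathway, had no match to these letters in its window.

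Of 18 genes for NAD, riboflavin and pantothenate 6 were higher and none lower, and not all of these calls held without YM culture 14. Among them were BNA3 and BNA4, whose enzymes act on kynurenine, with log2 fold changes of 1.98 and 1.74. In vitamin B6 synthesis 4 of 7 were higher, led by SNZ1, with 139 and 456 CPM in YM, against 34.1 and 20.4 CPM in YPD, a call lost without YM culture 14 (adjusted p = 0.0639) or YPD culture 10 (0.0734). None of the vitamin B6 calls was retained (0 without YM culture 14 and 2 without YPD culture 10). Of 15 thiamine genes 1 was higher (4 without YM culture 6) and 1 lower. THI4, which makes the thiazole ring, had 76.4 and 48.7 CPM in YM, against 2.05 and 6.18 CPM in YPD (log2 fold change 3.82, SE 0.51, adjusted p = 0.000723). PHO3, an acid phosphatase that frees thiamine from its phosphates, went down, with 29.3 and 31.8 CPM in YM, against 435 and 389 CPM in YPD (log2 fold change -3.75, SE 0.30, adjusted p = 3.81e-05). Of 6 biotin genes 1 was higher. BIO3, of biotin synthesis, had 29.8 and 73.7 CPM in YM, against 11.9 and 13.3 CPM in YPD, lost without YM culture 14 (adjusted p = 0.0996), YPD culture 2 (0.051) or YPD culture 10 (0.0592).

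Of 19 genes of purine synthesis none was higher and 3 were lower, all of them IMP dehydrogenases, which commit purines to GTP, and the median of the list was -0.35. IMD2 had 5.14 and 5.94 CPM in YM, against 142 and 176 CPM in YPD (log2 fold change -4.83, SE 0.56, adjusted p = 0.000277). IMD4 had 106 and 125 CPM in YM, against 912 and 1108 CPM in YPD (log2 fold change -3.13, SE 0.39, adjusted p = 0.000475). IMD3 had 265 and 242 CPM in YM, against 837 and 851 CPM in YPD (log2 fold change -1.73, SE 0.32, adjusted p = 0.00367). The 3 calls were retained, and neither YM culture overlapped YPD in any of them, but the IMD genes are close paralogs among which counts may have been divided, and IMD4 overlaps another annotated gene. Pyrimidine genes had 1 call in each direction of 9 tested, and neither was retained.

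Of 22 genes of phosphate supply 6 were higher and none lower (2 without YM culture 14, 3 without YPD culture 2 and 3 without YPD culture 10). GIT1, which takes up glycerophosphodiesters, had 38.3 and 232 CPM in YM, against 10.3 and 9.03 CPM in YPD (log2 fold change 3.81, SE 0.69, adjusted p = 0.00322). PHO85, the kinase that holds the pathway in check, had 119.8 and 142 CPM in YM, against 56.3 and 56.1 CPM in YPD (log2 fold change 1.22, SE 0.21, adjusted p = 0.0027). PHO89, a sodium and phosphate cotransporter, had 1050.3 and 3037 CPM in YM, against 124 and 222 CPM in YPD, with a log2 fold change of 3.56, but its call was lost, at the threshold, without YM culture 14 (adjusted p = 0.05) or YPD culture 2 (0.0515). The list as a whole lay near 0, with a median of 0.26, or -0.10 without YPD culture 2. The list of inositol and phospholipid genes had 2 of 19 higher and 2 lower, with a median of 0.28. INO1, which makes inositol, was higher, with 194 and 59.4 CPM in YM, against 7.8 and 12.1 CPM in YPD (log2 fold change 3.64, SE 0.72, adjusted p = 0.00545), and here YM culture 6 was the higher culture. In ergosterol synthesis 2 of 23 genes were higher, ERG25, a sterol demethylase subunit, with 1885 and 2546 CPM in YM, against 605 and 805 CPM in YPD (log2 fold change 1.65, SE 0.29, adjusted p = 0.0027), and ERG5, a sterol desaturase. ERG5 had a log2 fold change of 1.12, a call lost without YM culture 14 (adjusted p = 0.145), YPD culture 2 (0.0925) or YPD culture 10 (0.0631). Of 9 genes of fatty acid synthesis 2 were lower and none higher, the elongases ELO3 and ELO2. ELO3 had 144 and 147 CPM in YM, against 662 and 867 CPM in YPD (log2 fold change -2.39, SE 0.39, adjusted p = 0.00195). ELO2 had 123 and 115 CPM in YM, against 393 and 492 CPM in YPD and lost its call without YM culture 14 (adjusted p = 0.0508).

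Transporters of metals gave few calls. None of the 7 siderophore-iron genes passed the test (1 without YM culture 14 and 3 without YPD culture 2 fell), although their median log2 fold change was -1.11, and this value was 0.06 without YPD culture 10. FIT3, a cell wall protein that retains siderophore iron, had 153 and 573 CPM in YM, against 347 and 1715 CPM in YPD (adjusted p = 0.271), so that YPD culture 2 lay below YM culture 14. In the reductive system 2 of 18 genes fell. FRE1, the main ferric and cupric reductase of the cell surface, had 22.1 and 50.4 CPM in YM, against 213 and 453 CPM in YPD (log2 fold change -3.20, SE 0.57, adjusted p = 0.00295). FET4, a low-affinity iron transporter, had 39.3 and 61.5 CPM in YM, against 248 and 258 CPM in YPD, a call lost without YM culture 6 (adjusted p = 0.0718). CTR1, the high-affinity copper transporter, was lower, with 19 and 24 CPM in YM, against 95.7 and 153 CPM in YPD (log2 fold change -2.53, SE 0.38, adjusted p = 0.00128). CRS5, a copper-binding metallothionein, was higher, with 99.5 and 60.6 CPM in YM, against 5.34 and 4.75 CPM in YPD (log2 fold change 3.99, SE 0.66, adjusted p = 0.00204). Of 16 zinc genes 3 were lower (1 without YM culture 6, 1 without YM culture 14 and 1 without YPD culture 10) and 1 higher, and IZH4, a membrane protein tied to zinc and sterol metabolism, was retained, with 17.5 and 13.8 CPM in YM, against 81.7 and 124 CPM in YPD (log2 fold change -2.72, SE 0.50, adjusted p = 0.0035). ZRT2, the low-affinity zinc transporter, had 113 and 92.2 CPM in YM, against 243 and 233 CPM in YPD, but its call was lost without YM culture 6 (adjusted p = 0.0634), YM culture 14 (0.145), YPD culture 2 (0.0715) or YPD culture 10 (0.0822).

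Ribosomal proteins were lower in YM as a class. Of 136 tested genes 79 fell and none rose, with a median log2 fold change of -1.12. Their share of all counts was 8.29% and 8.04% in YM, against 18.7% and 16.1% in YPD. RPL9A of the large subunit had 302 and 377 CPM in YM, against 1125 and 1029 CPM in YPD (log2 fold change -1.67, SE 0.28, adjusted p = 0.00221). RPS26B of the small subunit had 248 and 242 CPM in YM, against 746 and 682 CPM in YPD (log2 fold change -1.54, SE 0.22, adjusted p = 0.00092). RPS29A had 121 and 139 CPM in YM, against 392 and 365 CPM in YPD (log2 fold change -1.54, SE 0.24, adjusted p = 0.0017). The YM cultures lay close together and below both YPD cultures in each of them. The median lay near the 2-fold bound, and the number called moved with the libraries: 52 without YM culture 6, 40 without YM culture 14, 47 without YPD culture 2 and 64 without YPD culture 10, and 30 of the 79 were retained. Most of these proteins come from pairs of near-identical genes among which counts may have been divided. The genes that build ribosomes fell less, with 7 of 65 called and a median of -0.68, and here too the number moved (11 without YM culture 6, 2 without YM culture 14, 13 without YPD culture 2 and 3 without YPD culture 10). NOP56, a core protein of the particles that methylate ribosomal RNA, had 173 and 131 CPM in YM, against 489 and 467 CPM in YPD (log2 fold change -1.65, SE 0.24, adjusted p = 0.00117). GAR1, of those that make pseudouridine, had 161 and 156 CPM in YM, against 407 and 422 CPM in YPD (log2 fold change -1.39, SE 0.27, adjusted p = 0.00492). Subunits of RNA polymerases I and III had 4 of 26 lower and none retained (0 without YM culture 14 and 1 without YPD culture 10). Mitochondrial ribosomal proteins, encoded in the nucleus, had 4 of 67 lower and 1 higher, also with none retained (8 without YM culture 6, 1 without YM culture 14 and 1 without YPD culture 2 were lower).

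Of 21 tested genes of glycolysis and fermentation, 4 were lower and 1 higher, with a median of -0.35. TDH3, a glyceraldehyde-3-phosphate dehydrogenase and the gene with the most counts, had 28506 and 17961 CPM in YM, against 23496 and 33384 CPM in YPD (log2 fold change -0.29, adjusted p = 0.647). FBA1, aldolase, had 16682 and 11946 CPM in YM, against 12339 and 15053 CPM in YPD, and did not pass. PDC1, the main pyruvate decarboxylase, had 13280.3 and 15649.9 CPM in YM, against 8049 and 14360.4 CPM in YPD, and did not pass. In all 3 the values of the media overlapped. HXK2, the main hexokinase and a part of glucose repression, was lower, with 247 and 229 CPM in YM, against 1288 and 1972 CPM in YPD (log2 fold change -2.78, SE 0.30, adjusted p = 0.000238). The other falls were not retained. ENO2, enolase, had 5888 and 4127 CPM in YM, against 12312 and 20818 CPM in YPD, lost without YM culture 14 (adjusted p = 0.121) or YPD culture 10 (0.124). TDH2 had 1660.2 and 875 CPM in YM, against 3257 and 6198 CPM in YPD, lost without the same cultures (0.149 and 0.154). ADH1, the alcohol dehydrogenase of fermentation, had 8825 and 5964 CPM in YM, against 13919.8 and 20134 CPM in YPD, lost without YM culture 6 (0.0576), YM culture 14 (0.218) or YPD culture 10 (0.226). ENO2 and TDH2 have close paralogs. In contrast, PDC6, a minor pyruvate decarboxylase that is poor in sulfur amino acids, had 848 and 559.6 CPM in YM, against 5.75 and 3.09 CPM in YPD (log2 fold change 7.36, SE 0.73, adjusted p = 0.00013). Of 14 tested genes of hexose transport and glucose sensing only HXT5, a transporter known from slow growth and starvation, passed. It had 2711 and 2322 CPM in YM, against 28.8 and 12.4 CPM in YPD (log2 fold change 6.96, SE 0.91, adjusted p = 0.000623). HXT3, a low-affinity transporter, had 5576 and 4791 CPM in YM, against 7308 and 5466 CPM in YPD and did not pass. HXT4 had 515 and 268 CPM in YM, against 2423 and 133 CPM in YPD, so that the YPD cultures differed from each other more than the media.

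Genes of gluconeogenesis and acetate use were higher in 5 of 15 cases and lower in none, with a median of 1.63. Without YPD culture 10, 3 were higher and the median was 0.92. PCK1, the phosphoenolpyruvate carboxykinase that starts gluconeogenesis, had 162 and 346 CPM in YM, against 18.1 and 12.6 CPM in YPD (log2 fold change 4.07, SE 0.62, adjusted p = 0.00131). MLS1, malate synthase of the glyoxylate cycle, had 59.6 and 38 CPM in YM, against 4.52 and 2.14 CPM in YPD (log2 fold change 3.93, SE 0.53, adjusted p = 0.000723). CAT8, an activator of these genes, had 40.1 and 39.4 CPM in YM, against 13.1 and 8.08 CPM in YPD (log2 fold change 1.93, SE 0.32, adjusted p = 0.00195). Each was higher in both YM cultures than in either YPD culture. MDH2, the cytosolic malate dehydrogenase, had 549 and 428 CPM in YM, against 108 and 41.3 CPM in YPD, lost without YM culture 6 (adjusted p = 0.0504) or YPD culture 10 (0.111). Nuclear genes of the respiratory chain and ATP synthase, some of whose complexes need subunits encoded in the mitochondrial genome, had a median of 0.85 with 2 of 39 called, both higher (1 without YM culture 6, 1 without YM culture 14, 5 without YPD culture 2 and 1 without YPD culture 10). QCR6, of the cytochrome bc1 complex, had 156 and 133 CPM in YM, against 38.6 and 51.5 CPM in YPD (log2 fold change 1.68, SE 0.32, adjusted p = 0.00412). SDH1, of succinate dehydrogenase, had 169 and 185 CPM in YM, against 77.2 and 25.4 CPM in YPD, lost without YM culture 6 (adjusted p = 0.0973), YM culture 14 (0.136) or YPD culture 10 (0.26). Of 12 genes of the retrograde pathway, by which cells without respiration keep up the supply of glutamate precursors, only PYC1, a pyruvate carboxylase, was called, with 886 and 1019 CPM in YM, against 165 and 68.4 CPM in YPD, and this was lost without YPD culture 10 (adjusted p = 0.0607).

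**Figure D3:**
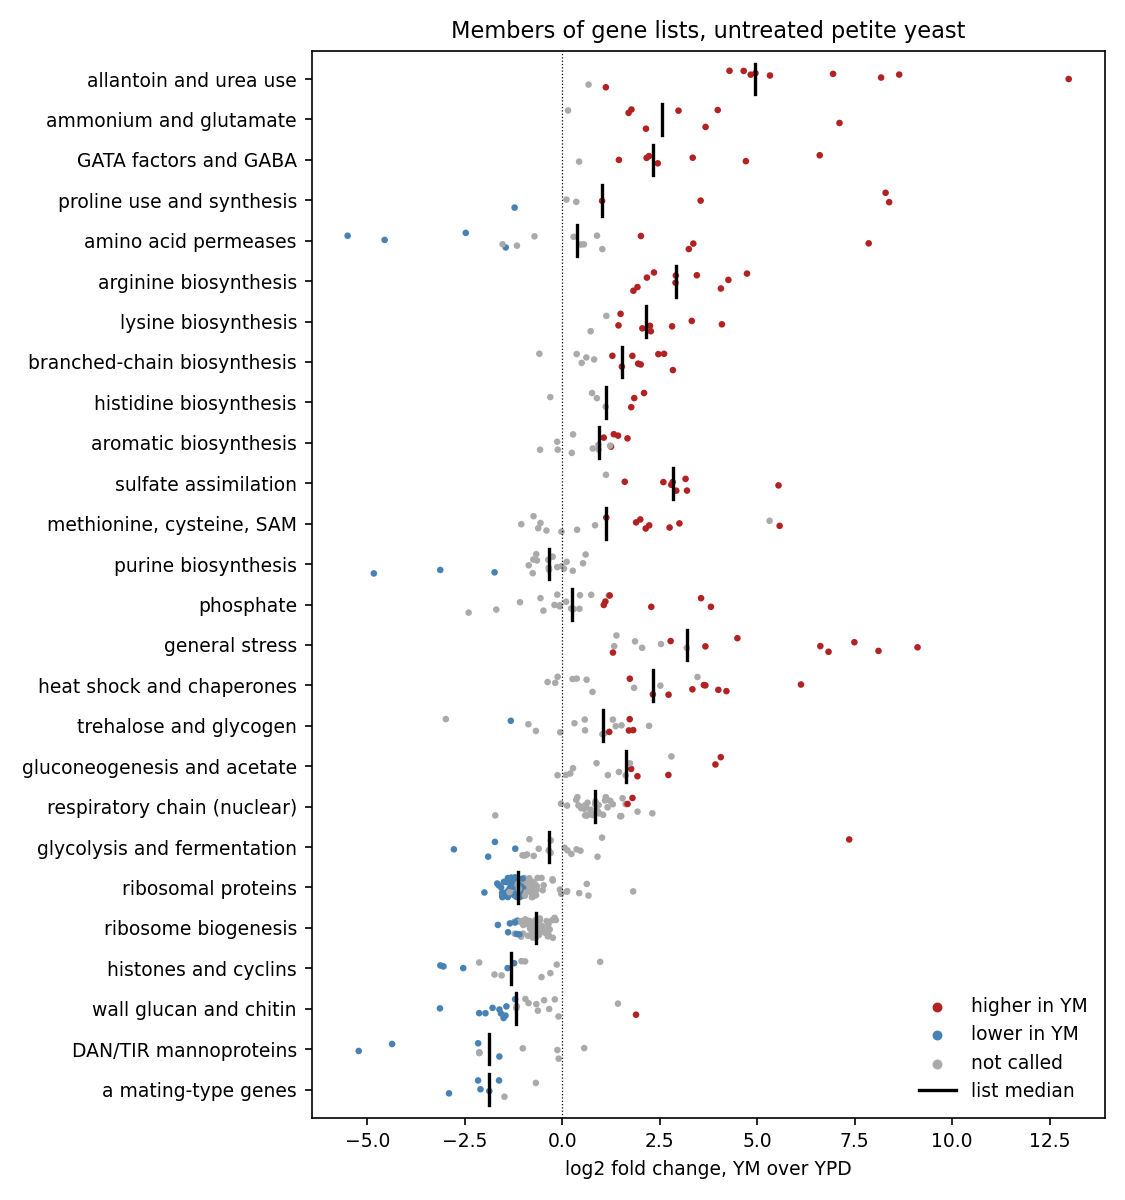
Log2 fold change of YM over YPD in untreated petite yeast (x axis) for each tested member of 26 gene lists (rows), with red for genes higher in YM, blue for genes lower in YM, grey for genes not called and a bar at the list median. Medians run from 4.95 for allantoin and urea use to -1.87 for the a mating-type genes and the DAN/TIR mannoproteins.

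Of 15 genes of general stress and stationary phase 9 were higher, none lower, with a median log2 fold change of 3.19 and 5 retained (5 without YPD culture 10 were higher). CTT1, the cytosolic catalase, had 2237 and 1734 CPM in YM, against 22.2 and 13.1 CPM in YPD (log2 fold change 6.83, SE 0.93, adjusted p = 0.000769). GRE1, a small hydrophilic protein of osmotic and drying stress, had 1843 and 1321 CPM in YM, against 13.1 and 4.99 CPM in YPD (log2 fold change 7.49, SE 0.94, adjusted p = 0.000463). SIP18, of the same kind, had 647 and 89.1 CPM in YM, against 1.64 and 0 CPM in YPD (log2 fold change 9.11, SE 1.49, adjusted p = 0.00195). SPG4, needed for survival in stationary phase, had 269 and 74.1 CPM in YM, against 0 and 0.95 CPM in YPD (log2 fold change 8.11, SE 1.22, adjusted p = 0.00128). The 2 YM cultures differed about 7-fold in SIP18 and both were above YPD, where the counts were at or close to 0. DDR2, a stress protein of unknown role, had 5648 and 2279 CPM in YM, against 78 and 4.04 CPM in YPD, and its call was lost without YM culture 6 (adjusted p = 0.0636) or YPD culture 10 (0.117). The summed level of the list was 22525 and 13280.4 CPM in YM, against 2920.2 and 926 CPM in YPD, so that culture 6 was above culture 14 within YM and culture 2 above culture 10 within YPD.

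Of 19 heat shock proteins and chaperones 9 were higher and none lower, with a median of 2.33. The number higher was 6 without YM culture 6, 7 without YM culture 14, 9 without YPD culture 2 and 4 without YPD culture 10, and 4 were retained. HSP82, the inducible Hsp90, had 403 and 342 CPM in YM, against 40.3 and 33.5 CPM in YPD (log2 fold change 3.34, SE 0.46, adjusted p = 0.000769). SSA3, a stress-induced Hsp70, had 340.2 and 462 CPM in YM, against 27.5 and 35.2 CPM in YPD (log2 fold change 3.67, SE 0.51, adjusted p = 0.000877). HSP78, the disaggregase of mitochondria, had 146 and 279 CPM in YM, against 24.2 and 10.7 CPM in YPD (log2 fold change 3.63, SE 0.61, adjusted p = 0.00209). In each of these the YM cultures were many times above the YPD cultures. HSP12, a membrane-associated stress protein, had 11389 and 4111 CPM in YM, against 155 and 68.2 CPM in YPD (log2 fold change 6.12, adjusted p = 0.0109), although its call was lost without YPD culture 10 (0.0942). HSP26, a small heat shock protein, had 1566 and 969 CPM in YM, against 90.8 and 46.6 CPM in YPD, lost without YM culture 6 (adjusted p = 0.101), YM culture 14 (0.0779), YPD culture 2 (0.102) or YPD culture 10 (0.208). Of 24 genes against peroxides and of glutathione 8 were higher and 1 lower, of which 3 were retained, and the number higher was 5 without YM culture 6, 5 without YM culture 14, 6 without YPD culture 2 and 3 without YPD culture 10. TSA2, a stress-induced peroxiredoxin, had 227 and 251 CPM in YM, against 8.63 and 12.4 CPM in YPD (log2 fold change 4.48, SE 0.68, adjusted p = 0.00128). GTT1, a glutathione transferase, had 1258 and 819 CPM in YM, against 112 and 127 CPM in YPD (log2 fold change 3.12, SE 0.56, adjusted p = 0.00315). Of 18 genes of trehalose and glycogen 4 were higher (1 without YM culture 14 and 1 without YPD culture 10) and 1 lower, and only ATH1, the acid trehalase, was retained, with 46.3 and 61.1 CPM in YM, against 15.6 and 16.6 CPM in YPD (log2 fold change 1.73, SE 0.32, adjusted p = 0.00384).

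The stress element bound by Msn2 and Msn4, AGGGG on either strand, is short and frequent. It occurred at least 2 times in the windows of 8 of 15 general stress genes and 8 of 19 chaperone genes, against 8.35% of all windows, 17.9% of those of genes higher in YM and 3.31% of those of genes lower in YM. The highest share of any list was that of trehalose and glycogen, 13 of 18, where only 4 genes were called higher and 1 lower. Peroxide and glutathione genes had 7 of 24. Glycolysis and fermentation, with 1 gene called higher and 4 lower, had 4 of 21. The element is shown before 3 of the named stress genes, of which CTT1 was retained.
CTT1: tttatcgtatCCCCTactgctacac
HSP12: tccggtcgtcCCCCTcttgatctga
DDR2: tcttttctcaCCCCTtatgggacat
CCCCT is the element on the opposite strand. The sites are, in R64, for CTT1 (YGR088W) at chrVII:654491-654515 on the plus strand, for HSP12 (YFL014W) at chrVI:107056-107080 on the plus strand and for DDR2 (YOL052C-A) at chrXV:231916-231940 on the minus strand, which is 128, 185 and 170 bases before the start. HSP12 has 5 matches in its window, DDR2 has 4 and CTT1 has 3, whereas none was found for GRE1. The calls of HSP12 (adjusted p = 0.0942) and DDR2 (0.117) were lost without YPD culture 10, and that of DDR2 without YM culture 6 (0.0636).

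**Figure D4:**
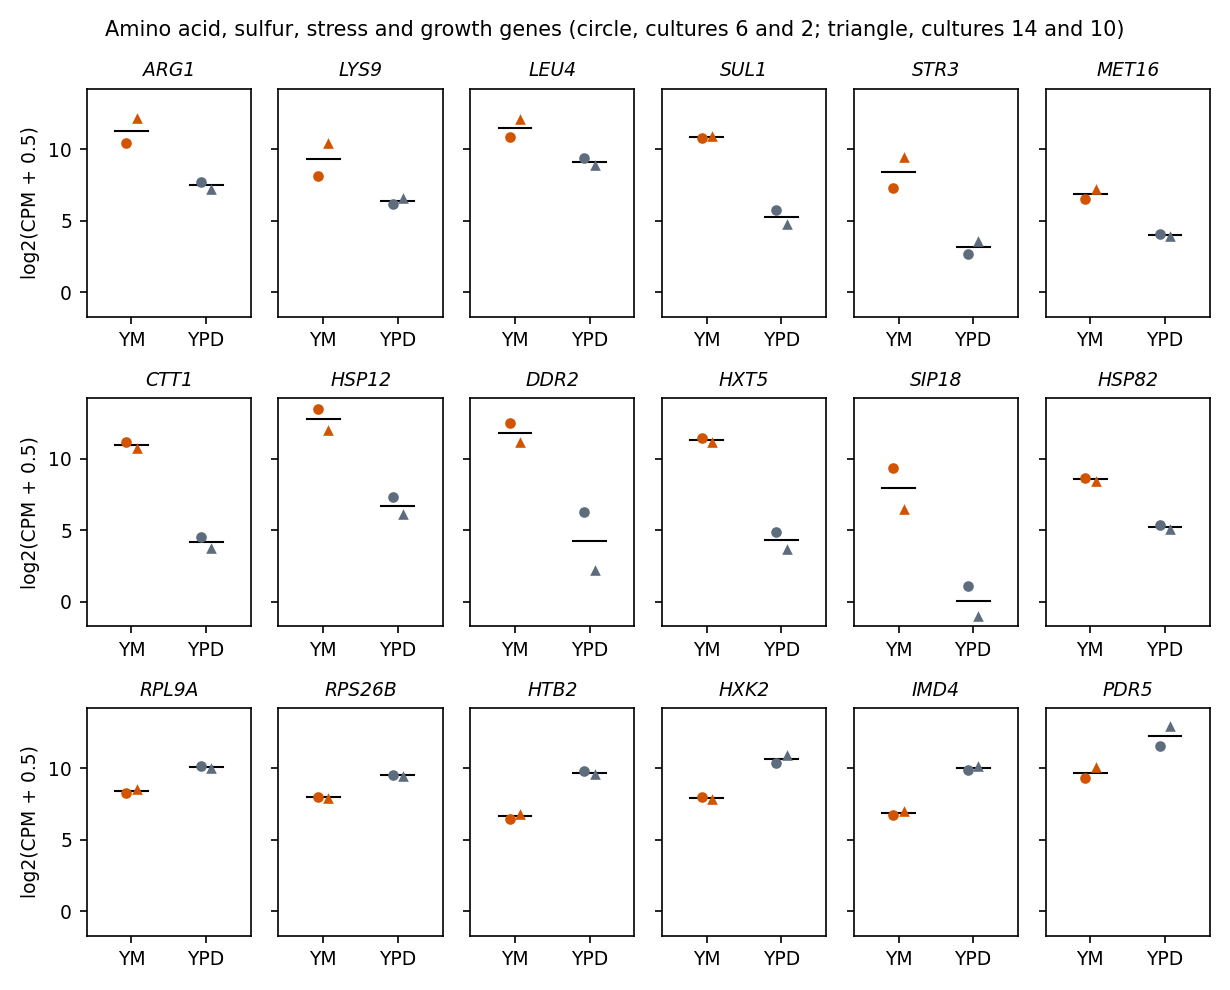
Log2(CPM + 0.5) of 18 genes of amino acid and sulfur supply, stress and growth in the untreated petite libraries, YM left and YPD right, with circles for cultures 6 and 2, triangles for cultures 14 and 10 and a bar at the mean of the 2 cultures. ARG1, LYS9 and STR3 are higher in YM culture 14 than in YM culture 6, SIP18 the other way round, and the genes of the bottom row are lower in both YM cultures.

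Of 22 enzymes of wall glucan and chitin 10 fell and 1 rose, with a median of -1.17, but the calls rested on the libraries: 1 without YM culture 6, 4 without YM culture 14, 8 without YPD culture 2 and 2 without YPD culture 10. Only SCW10, a wall glucanase-like protein, was retained, with 138 and 275 CPM in YM, against 797 and 818 CPM in YPD (log2 fold change -1.97, SE 0.40, adjusted p = 0.00583). UTR2, which links chitin to glucan, had 27 and 119 CPM in YM, against 368 and 914 CPM in YPD, lost without YM culture 6 (adjusted p = 0.138) or YPD culture 10 (0.149). GSC2, a glucan synthase subunit that is induced by stress, rose, with 956 and 960.5 CPM in YM, against 354 and 163 CPM in YPD, lost without YM culture 6 (adjusted p = 0.079), YM culture 14 (0.0931) or YPD culture 10 (0.203). Of 8 structural wall proteins 1 rose and 1 fell, with a median of -0.54, and neither call was retained. Of 10 mannoproteins of the DAN, TIR and CWP families, several of them known from growth without oxygen, 5 fell and none rose (1 without YM culture 6, 3 without YM culture 14, 4 without YPD culture 2 and 1 without YPD culture 10). DAN1 had 1.03 and 2.14 CPM in YM, against 15.2 and 105 CPM in YPD (log2 fold change -5.22, SE 0.94, adjusted p = 0.00315). TIR1 had 9.77 and 17.8 CPM in YM, against 123 and 445 CPM in YPD, with YPD culture 10 several times above YPD culture 2 in both. The call of TIR1 was lost without YM culture 6 (adjusted p = 0.0669), YM culture 14 (0.0503) or YPD culture 10 (0.056). ANB1, the form of translation factor eIF5A that is expressed when oxygen or heme is low, was lower as well, with 3.6 and 12.1 CPM in YM, against 61.6 and 128 CPM in YPD (log2 fold change -3.59, SE 0.55, adjusted p = 0.00135), and so was YHB1, a flavohemoglobin that removes nitric oxide, with 21.1 and 55.8 CPM in YM, against 281 and 641 CPM in YPD (log2 fold change -3.58, SE 0.59, adjusted p = 0.00195).

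Of 14 genes for core histones, which are transcribed as DNA is replicated, and for cyclins and related factors of the cell cycle, 5 fell and none rose, with a median of -1.32 (3 without YPD culture 2 and 3 without YPD culture 10 fell). Of the 8 core histone genes 4 passed and the other 4 did not. HTB2, a histone H2B gene, had 86.1 and 112 CPM in YM, against 877 and 757 CPM in YPD (log2 fold change -3.05, SE 0.50, adjusted p = 0.00195). HTA2, for H2A, had 26.2 and 62.3 CPM in YM, against 389.8 and 383 CPM in YPD (log2 fold change -3.12, SE 0.42, adjusted p = 0.000723). HHF2, for H4, had 99.2 and 105 CPM in YM, against 606 and 579 CPM in YPD (log2 fold change -2.54, SE 0.31, adjusted p = 0.000376). In each of them both YM cultures were far below both YPD cultures. The other calls were HHF1, the second H4 gene, and CLN1, a G1 cyclin. HHF1 had 206 and 144 CPM in YM, against 492 and 432 CPM in YPD, lost without YM culture 14 (adjusted p = 0.144), YPD culture 2 (0.0715) or YPD culture 10 (0.0609), and CLN1 had 16.5 and 36.1 CPM in YM, against 62.8 and 61 CPM in YPD, lost without YM culture 6 (0.18), YPD culture 2 (0.0808) or YPD culture 10 (0.0997). The 2 genes of each histone encode near-identical proteins, and counts may have been divided between them.

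Genes that mark the a cell were lower in YM, 5 of 7 with none higher and a median of -1.87 (2 without YM culture 6 and 2 without YPD culture 2 were lower). BAR1, the protease that degrades alpha factor, had 19 and 48.5 CPM in YM, against 257 and 249 CPM in YPD (log2 fold change -2.90, SE 0.49, adjusted p = 0.00221). STE6, the exporter of a factor, had 60.7 and 100.3 CPM in YM, against 255 and 239.9 CPM in YPD (log2 fold change -1.62, SE 0.32, adjusted p = 0.00536). MFA2, an a factor gene, had 89.2 and 189 CPM in YM, against 869 and 374 CPM in YPD, with YPD culture 2 above YPD culture 10, and its call was lost without YM culture 6 (adjusted p = 0.0807) or YPD culture 2 (0.0789). STE2, the alpha factor receptor, had 234 and 599.8 CPM in YM, against 1099 and 1228 CPM in YPD and did not pass (adjusted p = 0.0607). None of the 3 tested alpha genes or the 8 meiosis genes was called. HO, the endonuclease of mating-type switching, had 2.57 and 7.13 CPM in YM, against 22.2 and 86.2 CPM in YPD, lost without YM culture 6 (adjusted p = 0.139), YM culture 14 (0.0755) or YPD culture 10 (0.215).

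Of 15 multidrug transporters and related genes 2 fell and 2 rose (0 without YM culture 6, 1 without YM culture 14, 1 without YPD culture 2 and 1 without YPD culture 10 rose). PDR5, the main drug efflux pump of yeast, had 627 and 1060.3 CPM in YM, against 3043 and 8042 CPM in YPD (log2 fold change -2.72, SE 0.46, adjusted p = 0.00221). RSB1, a membrane protein that acts on sphingolipid bases, had 13.9 and 16.6 CPM in YM, against 78.9 and 81.5 CPM in YPD (log2 fold change -2.39, SE 0.42, adjusted p = 0.0026). For PDR5, YPD culture 10 was more than 2-fold above YPD culture 2. QDR2, an exporter of the major facilitator family, had 447 and 336 CPM in YM, against 147 and 129 CPM in YPD, lost without YM culture 6 (adjusted p = 0.0684) or YPD culture 10 (0.0914). Of 33 proteasome genes only RPN4, the activator of the others, was called, with 148 and 193 CPM in YM, against 67.8 and 67.5 CPM in YPD, and this was lost without YM culture 6 (adjusted p = 0.0519), YM culture 14 (0.149), YPD culture 2 (0.0997) or YPD culture 10 (0.137). Other genes with many counts did not pass. PMA1, the proton pump of the plasma membrane, had 7797 and 8915 CPM in YM, against 7194 and 9615 CPM in YPD. YEF3, a translation elongation factor, had 5946 and 7030.5 CPM in YM, against 7238 and 10911 CPM in YPD, and CCW12, a wall mannoprotein, had 9973 and 7289.9 CPM in YM, against 14421 and 11386 CPM in YPD. In PMA1 the media overlapped, and in CCW12 both YM cultures were below YPD by less than 2-fold. Some of the largest rises belong to none of the lists. YCL048W-A, a small open reading frame, had 2695 and 1099 CPM in YM, against 3.29 and 1.43 CPM in YPD (log2 fold change 9.73, SE 1.34, adjusted p = 0.000836). FMP16, whose product is found in mitochondria, had 1015 and 553 CPM in YM, against 8.21 and 1.66 CPM in YPD (log2 fold change 7.42, SE 1.31, adjusted p = 0.00281).

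Grande yeast gave fewer differences between YM and YPD in the same fit, 152 genes (109 higher and 43 lower, which is 2.60%, 1.86% and 0.734% of those tested), with no library in common with the petite comparison. Genes higher in YM in petite yeast mostly had a positive value in grande yeast too, 487 of 527, against 49.5% of all tested genes, and their median log2 fold change there was 0.87. Of these, 85 were also called in grande yeast. Genes lower in YM in petite yeast had a negative value in grande yeast in 277 of 364 cases, with a median of -0.30 and 17 called. A smaller number called in grande yeast does not show a smaller change, and the difference was therefore tested itself.

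The change between media differed between the strains for 31 genes, 0.529% of those tested, with 21 (0.359%) having a higher and 10 (0.171%) a lower value in petite yeast. They held 3 of 11 genes of allantoin and urea use and 2 of 7 proline genes, all with a higher value in petite yeast, and none of the 8 ammonium and glutamate genes or the 8 genes for GATA factors and GABA. DAL4 had 38 and 41.5 CPM in YM, against 9.21 and 6.3 CPM in YPD in grande yeast, so that its log2 fold change of 8.64 in petite yeast exceeded that of 2.38 in grande yeast by 6.26 (SE 0.87, adjusted p = 0.0159). DAL5 had 84.2 and 162 CPM in YM, against 15.2 and 12.1 CPM in YPD in grande yeast (difference 4.99, SE 0.76, adjusted p = 0.0266). PUT1 had 184 and 111 CPM in YM, against 12 and 7.09 CPM in YPD (difference 4.41, SE 0.57, adjusted p = 0.00995). In all 3 the YPD levels of both strains were low, and the YM levels of petite yeast stood far above those of grande yeast. DUR3 and PUT2 had differences of 3.80 and 2.87. DAL5, PUT1 and DUR3 rose in grande yeast as well, with log2 fold changes of 3.18 (adjusted p = 0.0105), 3.98 (0.00115) and 3.14 (0.00744). The grande values of DAL4 (adjusted p = 0.0571) and PUT2 (0.68, adjusted p = 0.271) did not pass. GAP1 and MEP2 also rose in both strains, with log2 fold changes of 6.57 (adjusted p = 0.00234) and 6.12 (adjusted p = 0.00224) in grande yeast. Their differences of 1.29 (SE 0.97, adjusted p = 0.57) and 0.99 (SE 0.89, adjusted p = 0.645) did not pass. The falls of BAP3, TAT1 and CHA1 had log2 fold changes in grande yeast of -4.61, -4.80 and -4.99, with differences of -0.89, 0.25 and -0.01 and standard errors of 1.32, 0.63 and 1.00.

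Transporters also stood among the 31 genes. PHO89 had 22.5 and 11.9 CPM in YM, against 23 and 103 CPM in YPD in grande yeast (difference 5.46, SE 1.03, adjusted p = 0.0468). DIP5 had 72.6 and 46.2 CPM in YM, against 218 and 107 CPM in YPD in grande yeast (difference 4.70, SE 0.85, adjusted p = 0.0468). PTR2 had 43.1 and 24.7 CPM in YM, against 179 and 132 CPM in YPD (difference 4.21, SE 0.81, adjusted p = 0.0468). Their log2 fold changes in grande yeast, -1.90, -1.45 and -2.20, were negative but did not pass (adjusted p = 0.189, 0.213 and 0.0674), against 3.56, 3.25 and 2.02 in petite yeast, where the calls of PHO89 (adjusted p = 0.05 without YM culture 14 and 0.0515 without YPD culture 2) and PTR2 (adjusted p = 0.0772, 0.087, 0.0581 and 0.18 without YM cultures 6 and 14 and YPD cultures 2 and 10) were not retained. ATG1, the kinase that starts autophagy, had 148 and 279 CPM in YM, against 13.1 and 13.3 CPM in YPD in petite yeast and 23.7 and 19.5 CPM in YM, against 21.6 and 10.5 CPM in YPD in grande yeast (difference 3.55, SE 0.61, adjusted p = 0.0395). HBT1, which acts in cell shape during mating, had 541 and 412 CPM in YM, against 25.5 and 27.8 CPM in YPD in petite yeast and 79.2 and 43.2 CPM in YM, against 35 and 38.6 CPM in YPD in grande yeast (difference 3.43, SE 0.41, adjusted p = 0.00995). Among the lower ones, the histone gene HTB2 had 1173 and 1436 CPM in YM, against 952 and 969 CPM in YPD in grande yeast (difference -3.49, SE 0.67, adjusted p = 0.0468). HXK2 had 866 and 856 CPM in YM, against 1130.4 and 1490.2 CPM in YPD (difference -2.17, SE 0.40, adjusted p = 0.0468). HTA2 and HHF2 differed in the same direction, by -3.16 and -2.34.

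Of the 31 adjusted p values 19 lay between 0.04 and 0.05, and no gene passed in all 8 fits that left out 1 of the untreated libraries. SHH4, a paralog of a succinate dehydrogenase subunit that is named here after its values were seen, passed in 7 of them, HBT1 in 6, PUT1 in 5 and DAL4 in 3, whereas HTB2, HHF2 and HXK2 passed in none. The number of genes moved with every library. It was 25 without petite YM culture 6, 4 without petite YM culture 14, 1 without petite YPD culture 2, 1 without petite YPD culture 10, 14 without grande YM culture 5, 4 without grande YM culture 13, 3 without grande YPD culture 1 and 13 without grande YPD culture 9. With the 8 untreated libraries alone, 3 genes passed, DAL4, DAL5 and HTB2. Arginine, sulfate, ribosomal protein and general stress genes as lists gave no member that differed between the strains, with medians in grande yeast of 2.16, 3.24, -0.26 and 1.62, against 2.91, 2.83, -1.12 and 3.19 in petite yeast.

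**Figure D5:**
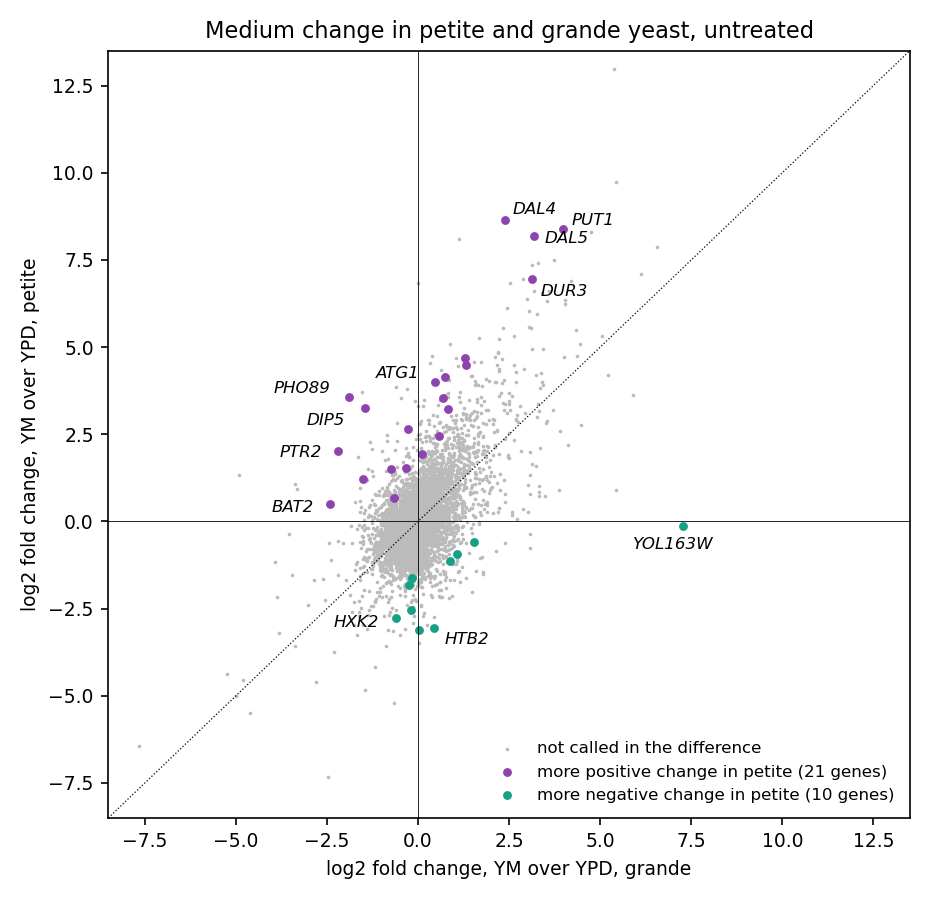
Log2 fold change of YM over YPD in untreated petite yeast (y axis) against that in untreated grande yeast (x axis), 1 point per tested gene, with the dotted line of equal values. Coloured points are the 31 genes whose change differed between the strains, 21 with a higher (purple) and 10 with a lower (green) value in petite yeast; YOL163W has 0 counts in both grande YPD libraries.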

How the data were processed

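The deposited table held raw counts per gene for the 16 libraries, which the authors made from unstranded paired-end TruSeq libraries with Rsubread, one column per library and no pooling. The submitters' processing notes also name CASAVA 1.7, TopHat2 2.0.12, DESeq2 1.8.1 and the builds R64 and sacCer3. A second deposited table, with the authors' own comparisons (fold changes and p-values), was not used. Reads are not given a strand, so reads from a stretch where genes overlap cannot be told apart by strand. How the counting treated such reads is not stated. Columns were tied to groups by strain, medium and treatment in their names. The 4 libraries held from 2239640 to 4082636 counts, and intervals from counts of 0 cover counting error only.

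Counts were fitted in edgeR 4.0.16 (R 4.3.3) with 8 group means over the 16 libraries, TMM factors, a filter on low counts (filterByExpr, minimum count 10, minimum total 15), a prior count of 0.125, the quasi-likelihood test and Benjamini-Hochberg adjustment over all 5856 genes. Genes were called at an adjusted p under 0.05 and at least 2-fold. Log2 fold changes are YM over YPD and SE is the fold change divided by the square root of F. CPM are counts scaled to a library of 1000000 after TMM, computed here. They are not divided by gene length and so do not compare levels between genes. The common biological coefficient of variation was 29.5%. The steps were tested on simulated data. Alternatives were RLE factors, library size alone, no filter, DESeq2 1.42.0, the 8 untreated libraries, the 4 compared libraries, the culture series as a block, no fold bound, and each library left out.

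Symbols came from the RefSeq annotation of R64, which named 6025 of 6717 genes. Windows of 500 bases before the annotated start were read from the same build. The 54 gene lists, the comparison and the search motifs were chosen with earlier results of these data known. Named genes were the 12 largest rises and falls with a mean count of at least 50 and no overlap, up to 6 called members of each list with the largest change and any that went against the rest, up to 3 largest where at most 1 was called, the 10 largest differences between strains, the 10 genes with the highest mean CPM and the markers.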

Additional observations from a re-analysis of the deposited data

Results flagged for a closer look

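The effect of the medium differed between petite and grande yeast, by the test of that difference itself (edgeR's quasi-likelihood test, Benjamini-Hochberg adjusted p under 0.05 and at least 2-fold), for 30 genes whose mean over the 8 untreated libraries was 50 counts or more. The values below are the log2 fold change of YM over YPD in petite yeast minus that in grande yeast. For nitrogen use, the allantoin permease DAL4 had 6.26, the allantoate transporter DAL5 4.99, the urea transporter DUR3 3.80, the proline enzymes PUT1 and PUT2 4.41 and 2.87, the cytosolic transaminase BAT2 2.93 and ARO80, an activator of aromatic amino acid breakdown, 2.25. For other transport, PHO89 had 5.46, DIP5 4.70, PTR2 4.21, the cysteine transporter YCT1 3.18, the glutathione and oligopeptide transporter OPT1 2.71 and CUP9, the repressor of PTR2, 1.82.

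Further positive values were those of the autophagy kinase ATG1 (3.55), HBT1 (3.43), SHH4 (3.39), the glutathione transferase GTO1 (2.92), RMI1 of the Sgs1 and Top3 complex (2.39), ILT1 (1.88), the cochaperone STI1 (1.84) and YFR006W (1.33). Negative values were those of the histone genes HTB2 (-3.49), HTA2 (-3.16) and HHF2 (-2.34), the hexokinase HXK2 (-2.17), the phosphatidylserine decarboxylase PSD1 (-2.12), the CAAX protease RCE1 (-2.03), the Cdc42 effector GIC1 (-2.03), invertase SUC2 (-1.60) and HAM1, which removes unusual nucleotides (-1.48). Not all of these genes were called between the media in petite yeast itself. BAT2 moved by 0.50 there on the log2 scale (adjusted p = 0.369), whereas grande yeast had a called fall of -2.43 (adjusted p = 0.00714). PSD1 moved by -0.59 in petite yeast (adjusted p = 0.155), against a called rise of 1.53 in grande yeast (adjusted p = 0.0133). GIC1 (-0.95) and YFR006W (0.66) stayed short of 2-fold in petite yeast. No cause was tested for any of the differences. None passed in all 8 fits that left out 1 untreated library, and groups of 2 could not be searched for a library that stands apart from its group.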

How the results depend on the processing

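The 891 genes became 890 with RLE factors, 830 with library size alone, 893 with no filter, 1022 with DESeq2, 1138 with no fold bound, 595 (367 higher, 228 lower) with the 8 untreated libraries and 381 (283 higher, 98 lower) with the 4 compared libraries, so that the share higher moved to 74.3%, against 59.2% in the fit of all 16. Without 1 of the 4 petite libraries the count ran from 510 to 746, with 295 to 464 higher and 189 to 313 lower. The 31 genes that differed between strains became 15 with RLE factors, 36 with library size alone, 31 with no filter, 200 with DESeq2 and 3 with the 8 untreated libraries, and ran from 1 to 25 without 1 of the 8 untreated libraries. At an unadjusted p under 0.05 and 2-fold, 1172 genes differed between media and 652 between strains. The cause of these moves was not tested.

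Taking the culture series as a replicate block (culture numbers 2 and 6 against 10 and 14, and likewise in the other groups) gave 1151 genes between media, of which 888 were among the 891, and 131 between strains. The labels do not say that a culture number marks a shared day or batch. The deviations of the petite YM and YPD cultures of a series correlated with r = 0.473 across genes, and the median over 28 pairs of groups was 0.455 (0.0257 to 0.735). With 2 cultures a group, numbers alone do not pair the samples, and the block changed the call of FIT3 and STE2 among named genes, both of which then passed as lower.

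For 181 named genes under 11 alternatives, 1818 of 1991 values kept their direction and call, 154 lost the call, 7 gained it and 12 changed sign. All sign changes were of genes not called: without 1 library FBA1 ran from -0.20 to 0.28, FIT3 from -2.75 to 0.062, HXT4 from -2.63 to 1.56, TDH3 from -0.67 to 0.0027, YOL163W from -0.62 to 0.83 and PMA1 from -0.21 to 0.21, and PMA1 was 0.0031 with RLE factors and with DESeq2, 0.026 with the 8 untreated libraries and 0.024 with the 4 compared. Library size alone ended the calls of AGP1, RPN4 and SDH1. Of 583 list medians, 62 moved by more than the spread between cultures and 18 changed sign, in 12 lists. Depth limits genes with few counts, and the 2 cultures a group limit the rest.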

Other observations

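Gene groups other than the lists above were looked at after their values had been seen, and are given as a description. PHO8, among the vacuolar hydrolases, is also in a list above. ATG15 counts both as a vacuolar hydrolase and as an autophagy gene. Vacuolar hydrolases, which break down proteins and glycans delivered to the vacuole, were higher in YM in 11 of 14 tested genes and lower in none, with a median log2 fold change of 1.42 and 5 retained whichever library was left out. PRB1, a vacuolar protease, had 3439.6 and 2344 CPM in YM, against 229 and 132 CPM in YPD (log2 fold change 4.0, SE 0.63, adjusted p = 0.00153). CPS1, a vacuolar carboxypeptidase, had 1220.2 and 912 CPM in YM, against 108 and 93.1 CPM in YPD (log2 fold change 3.41, SE 0.53, adjusted p = 0.00153). The YM cultures of both were far above the YPD cultures. AMS1, the vacuolar mannosidase, and LAP3, an aminopeptidase, had log2 fold changes of 2.43 and 1.84.

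Of 36 autophagy genes 13 were higher, none lower, with a median of 0.98 and 5 retained. ATG9, a membrane protein that seeds the autophagosome, had 51.9 and 57.3 CPM in YM, against 16.4 and 11.6 CPM in YPD (log2 fold change 1.97, SE 0.28, adjusted p = 0.00092). Of 29 peroxins 5 were higher and all 5 were retained, among them PEX11, which acts in peroxisome division, with 131 and 129 CPM in YM, against 41.9 and 57 CPM in YPD (log2 fold change 1.39, SE 0.19, adjusted p = 0.000769), and PEX18, of the import of proteins into peroxisomes, with 28 and 26.6 CPM in YM, against 4.11 and 4.75 CPM in YPD (log2 fold change 2.61, SE 0.45, adjusted p = 0.00244). Of 7 protein mannosyltransferases, which start O-mannosylation, 4 were lower and none higher, with none retained. PMT2 had 185 and 205 CPM in YM, against 518 and 705 CPM in YPD, and its call was lost without YPD culture 10 (adjusted p = 0.056). In grande yeast the medians of the 4 groups were 0.73, 0.31, 0.18 and 0.03.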
